A study of Mus musculus with 9 samples.

Results

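The genes described here encode exchangeable subunits of BAF, the mammalian SWI/SNF chromatin remodelling complex, whose composition changes when neural progenitors become neurons. The 10 members were chosen by name: Actl6a, Phf10 and Ss18 as progenitor subunits, Actl6b, Dpf1, Dpf3 and Ss18l1 as neuronal subunits, and Dpf2, Smarca2 and Smarca4 as further paralogues. Each had 1 row in the deposited table, so they are 10 of its 38195 gene symbols. Levels are given in FPKM, a fragment count divided by transcript length and by the depth of the library. Being per length, they can be set side by side between genes, but only roughly. The program that estimated them and the transcript lengths it used are not known here. All 10 members passed the filter for testing, which asked for at least 1 FPKM in at least 3 of 9 libraries. Every member was above 1 FPKM in every library with 1 exception, Dpf3, which was listed at 0 in ventricular library 3.

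BAF complexes use the energy of ATP to move or evict nucleosomes, and each complex carries 1 of 2 related ATPases, Brg1 (encoded by Smarca4) or Brm (encoded by Smarca2). In dividing neural progenitors the complex is known to contain the actin-related protein BAF53a (Actl6a), the PHD finger protein BAF45a (Phf10) and SS18. In neurons after their last division these are known to be replaced by BAF53b (Actl6b), by BAF45b or BAF45c (Dpf1 and Dpf3) and by CREST (Ss18l1).

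The 9 libraries came from CD-1 mouse embryos at stage E12.5, a time of neurogenesis in the hypothalamus. The labels name no mutation, transgene or treatment for these libraries, although the title of the series names Cenpj. Coronal slices were microdissected into the ventricular zone, which lines the ventricle, and the medial and lateral parts of the mantle zone, which lie farther out, with 3 libraries each. No label ties a library to its own embryo or litter, so p-values measure only the spread between samples, which may be technical. The tissue of a zone is a mixture of cells, and in such bulk samples fewer cells of a type and less RNA per cell cannot be told apart.

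Depth differed between libraries. The deposited values hold no read counts, but the steps of the low values imply 4422765 to 8803918 fragments in 7 libraries, 258682 in ventricular library 3 and 517397 in medial mantle library 3. At that depth, 1 fragment on a transcript of 2 kb is worth 1.93 FPKM in ventricular library 3 and 0.97 FPKM in medial mantle library 3. In ventricular library 3, 27 genes were listed at 0 while the other 8 libraries held at least 10 FPKM, and 15 were in medial mantle library 3. Whether such a 0 is a failed estimate or a gene missed at that depth was not tested. Several results that rest on these 2 libraries are given with and without them.

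The loss of BAF53a in neurons is known to involve the microRNAs miR-9* (now miR-9-3p) and miR-124, which act on the 3′ UTR of its mRNA. MicroRNAs were not measured in these mRNA libraries, and the sequence is shown because of the 3 progenitor subunits Actl6a had the largest ventricular minus lateral difference here. Mature miR-9-3p is the same in the 3 mouse genes that RefSeq lists for it (Mir9-1, Mir9-2 and Mir9-3, GRCm38.p6), and capitals mark its seed, bases 2 to 8.
mmu-miR-9-3p: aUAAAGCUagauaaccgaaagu
The 371-base 3′ UTR of the Actl6a transcript in GENCODE M21 holds 1 match to this seed, starting at UTR position 38. The match is printed in capitals within 29 bases of chr3:32726629-32726657 (GRCm38, plus strand).
Actl6a site: tcaacgtctgtAGCTTTAgtacactcagg
Among 14695 mouse 3′ UTRs at least as long, 419 (2.85%) hold AGCTTTA in their first 371 bases. The Smarca2 3′ UTR, of 951 bases, also holds 1 match, and those of the other 8 members hold none.

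Promoter windows from RefSeq (GRCm38.p6, 250 bases before to 50 after the start) were found for 9 of the 10 members. The neuronal subunit genes Actl6b, Dpf1 and Dpf3 held 3, 2 and 3 copies of CCAAT, the letters of a box that the factor NF-Y is known to bind, counted on both strands of the 250 bases before the start. The part of each window before the first annotated exon is printed in the gene's own direction, with CCAAT or its reverse complement ATTGG in capitals. The third copy of Actl6b lies inside an annotated exon and is not printed.
Actl6b, chr5:137553296-137553516, plus strand: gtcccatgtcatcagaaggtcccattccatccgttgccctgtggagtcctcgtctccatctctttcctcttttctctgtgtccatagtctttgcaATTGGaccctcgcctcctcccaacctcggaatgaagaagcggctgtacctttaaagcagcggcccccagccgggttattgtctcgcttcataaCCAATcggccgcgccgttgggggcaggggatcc
Dpf1, chr7:29303755-29303950, plus strand: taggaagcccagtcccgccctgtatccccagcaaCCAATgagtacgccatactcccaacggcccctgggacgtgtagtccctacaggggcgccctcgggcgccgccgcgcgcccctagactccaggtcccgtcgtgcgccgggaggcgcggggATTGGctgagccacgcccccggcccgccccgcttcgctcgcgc
Dpf3, chr12:83487737-83487986, minus strand: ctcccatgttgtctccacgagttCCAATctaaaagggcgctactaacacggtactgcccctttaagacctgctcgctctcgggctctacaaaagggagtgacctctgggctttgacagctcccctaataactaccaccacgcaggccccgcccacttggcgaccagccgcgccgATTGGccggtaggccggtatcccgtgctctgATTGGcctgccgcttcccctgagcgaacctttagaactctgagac
Of all 32851 promoter windows, 37.4% held at least 1 copy, 11.7% at least 2 and 3.37% at least 3. These shares count the full window, with the 50 bases after the start. Over the full window Actl6b, Dpf1 and Dpf3 also held 3, 2 and 3 copies. Dpf2 held 1 copy, and the windows of the neuronal subunit Ss18l1, of Smarca2 and Smarca4 and of the progenitor subunits Actl6a and Phf10 held none. CCAAT was picked for display after its matches were seen, from 10 sets of letters searched on both strands. The GC box letters GGGCGG were in 8 of 9 member windows, against 35.7% of all windows. The 9 member windows are rich in G and C, with 55.3% to 87.0% GC against a median of 52.7% over all windows. They hold 17 to 62 CG pairs, against a median of 7. The part of base composition in the GC box count was not tested. CAGCTG was in 1 (Phf10), CACNAG in 4, and GGACAGC, part of the REST element, in 1 (Actl6b), against 16.3%, 42.5% and 6.56% of all windows. The E-box letters CAGATG and CACGTG were in none of the 9, and neither were the E2F letters TTTGGCGC or TTTCCCGC or the REST element part TTCAGCACC.

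Between the ventricular and the lateral mantle zone, 5 of the 10 members passed the test, and they came from 3 of the exchangeable positions. The progenitor subunits Actl6a and Ss18 were 2.54-fold and 2.29-fold higher in the ventricular zone. The neuronal subunits Actl6b and Ss18l1 were 3.16-fold and 2.41-fold lower there, and the ATPase gene Smarca2 was 2.44-fold lower. The 4 genes of the BAF45 position (Phf10, Dpf1, Dpf2 and Dpf3) and Smarca4 did not pass. The test was limma on log2(FPKM + 1) across all 14004 genes tested, with p-values adjusted by Benjamini-Hochberg, and folds are on that scale, which understates the change of low genes. The background of the same comparison was 19.6% of all genes, made up of 10.7% higher and 8.93% lower in ventricular tissue. The ventricular and lateral libraries did not overlap for 9 of the 10 members, all but Smarca4, against 45.1% of all genes. Of these, 4 were higher and 5 lower in the ventricular zone, against 25.2% and 19.9% of all genes. The median log2 difference, ventricular minus lateral, was -0.56 over the members and 0.05 over all genes tested. The members held 5 positive and 5 negative differences, and their median falls in the gap between Smarca4 (0.14) and Ss18l1 (-1.27). It therefore describes no shared shift. Without ventricular library 1 or any 1 of lateral libraries 1, 2 or 3, 3 members passed (Actl6a, Ss18 and Smarca2). Of all genes tested, 1199 passed without ventricular library 1, and 959, 1021 and 1250 without lateral libraries 1, 2 and 3 in turn. With all 9 libraries 2750 genes passed. Without ventricular library 2, 7 members passed, when Dpf1 and Dpf2 were added, and 3958 genes. Without both shallow libraries 5 members passed, with Dpf1 in place of Actl6b, and 3933 genes.

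**Figure D1:**
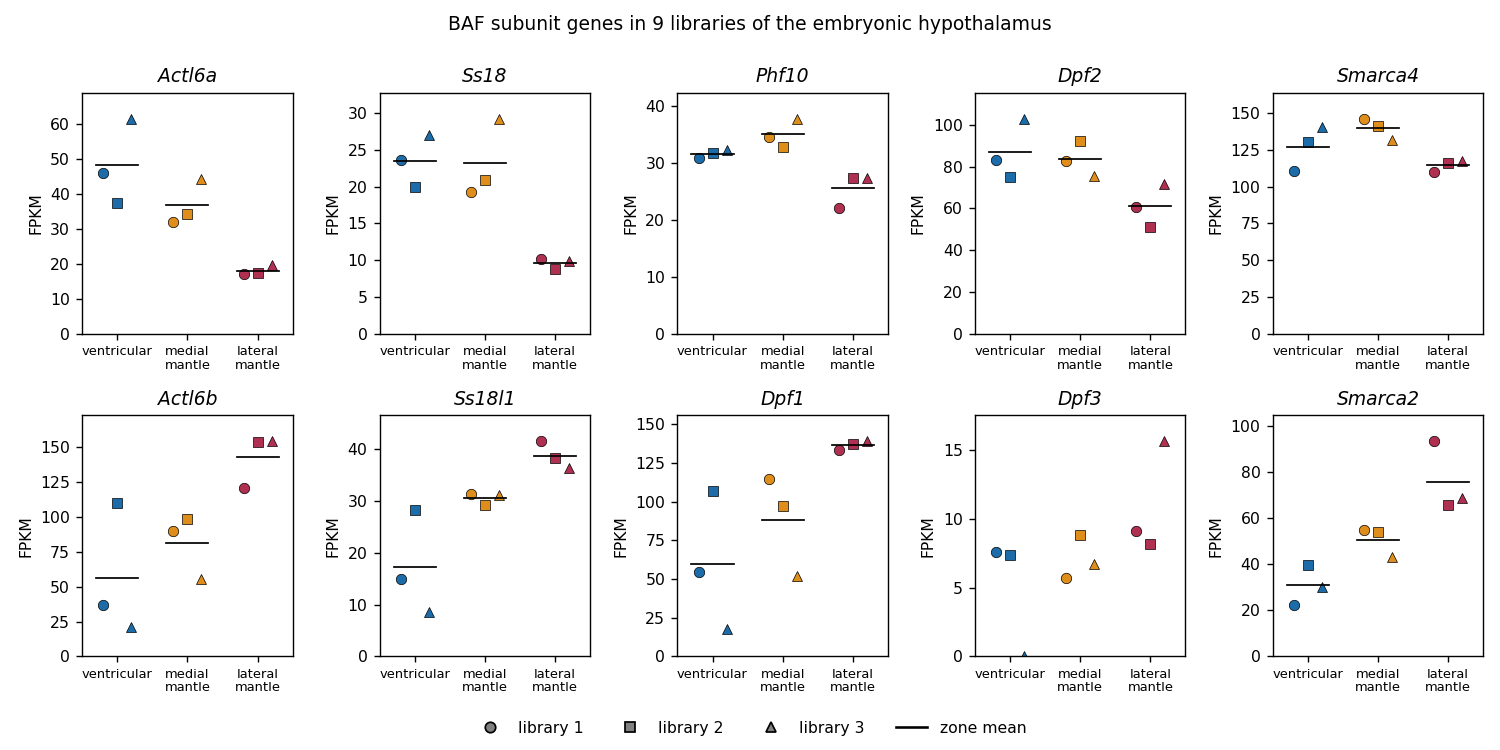
FPKM of the 10 members (y axis, linear, from 0) in each of 9 libraries by zone, with circles, squares and triangles for libraries 1, 2 and 3 and a line at the zone mean, which is left out for Dpf3. Actl6a and Ss18 are lowest in the 3 lateral mantle libraries, while Actl6b, Dpf1, Ss18l1 and Smarca2 are highest there, and ventricular library 2 is the highest ventricular library for these last 4.

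Marker genes were read beside these differences. The 12 neuronal markers were Mapt, Map2, Stmn2, Snap25, Syt1, Rbfox3, Nefl, Nefm, Dcx, Elavl3, Elavl4 and Gap43. The 12 markers of radial glia and dividing progenitors were Sox2, Sox9, Hes1, Hes5, Fabp7, Slc1a3, Vim, Nes, Mki67, Top2a, Ccnb1 and Ube2c. The progenitor markers summed to 1879, 1049.7 and 2380.0 FPKM in ventricular libraries 1 to 3, to 1016 to 1217 FPKM in the medial mantle and to 56.7 to 120.0 FPKM in the lateral mantle. All 12 were higher in the ventricular and in the medial mantle zone than in the lateral mantle zone by limma. The neuronal markers summed to 702, 1423 and 609 FPKM in the ventricular libraries, to 1351 to 1589.5 FPKM in the medial mantle and to 1908 to 2237 FPKM in the lateral mantle, and 9 of 12 were lower in the ventricular zone than in the lateral mantle. Ventricular library 2 therefore held the highest neuronal sum and the lowest progenitor sum of its zone, and both sums lay within the range of the medial mantle. Of the 12 neuronal markers, 1 had a positive ventricular minus lateral difference. Between the mantle zones 1 of them (Rbfox3) passed, lower in the medial mantle, and 2 had a positive medial minus lateral difference. No marker of either list was at 0 in any library. The part of cell composition in the differences between members was not tested.

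Markers of other cell types differed between zones as well. The 5 erythroid markers summed to 1262 to 1302 FPKM in the ventricular, 950.3 to 1608 in the medial mantle and 76.9 to 324 in the lateral mantle zone, and 4 of these 5 were higher in the ventricular zone than in the lateral one. The 7 markers of microglia and macrophages summed to 14.1 to 20.9, 12.6 to 27.1 and 32.5 to 47.8 FPKM in the same order, and 2 (C1qa and Csf1r) were lower in the ventricular zone. The 6 endothelial markers reached 5.99 to 43.6, 18.6 to 54.6 and 13.4 to 42.7 FPKM, and the 6 markers of meninges and pericytes 8.59 to 13.1, 7.97 to 16.3 and 3.52 to 9.51 FPKM, with no tested marker of either list past the threshold. Dcn was at 0 in 5 libraries and Lum in 8. The part of these cell types in the differences between members was not tested.

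Actl6a (chr3:32706298-32726973, plus strand) encodes BAF53a, an actin-related subunit that is also part of the INO80 and TIP60 complexes. It was at 46.2, 37.6 and 61.5 FPKM in ventricular libraries 1 to 3, at 32.0, 34.2 and 44.2 FPKM in the medial mantle and at 17.3, 17.4 and 19.6 FPKM in the lateral mantle. Every ventricular and medial library lay above every lateral one, while the ventricular and medial libraries overlapped. The ventricular zone exceeded the lateral one by 1.35 ± 0.21 on the log2 scale (SE; limma adjusted p = 0.00362), and this held in all 21 alternative settings. The medial mantle exceeded the lateral mantle by 0.97 ± 0.21 (limma adjusted p = 0.0331). That call was lost without ventricular library 1 (adjusted p = 0.0561) or any 1 of the 6 mantle libraries (adjusted p 0.0680 to 0.137, with differences of 0.84 to 1.07). It was also lost with no filter (adjusted p = 0.0527), trimmed mean scaling (0.86, adjusted p = 0.0613) and no intensity trend (adjusted p = 0.0539), and passed in 11 of 21 alternatives. Ventricular and medial mantle differed by 0.37 ± 0.21, which did not pass (limma adjusted p = 0.479). Of the exonic bases of Actl6a, 452 (11.6%) overlap Mrpl47 on the opposite strand, and no source used here states that strand was used in counting. Mrpl47 was at 9.61 ± 0.91, 8.22 ± 2.32 and 9.45 ± 2.45 FPKM in the ventricular, medial and lateral zones (SD, n = 3), a ventricular minus lateral difference of 0.05 on the log2 scale.

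Actl6b (chr5:137553517-137569582, plus strand) encodes BAF53b, the neuronal counterpart. Its levels were 36.8, 110.5 and 21.2 FPKM in ventricular libraries 1 to 3, 90.2, 98.7 and 55.3 FPKM in the medial mantle and 121, 154 and 154 FPKM in the lateral mantle. The lateral libraries were the 3 highest of the 9, and ventricular library 2 stood above all 3 medial ones. The ventricular zone was lower than the lateral one by a log2 difference of -1.66 ± 0.49 (SE; limma adjusted p = 0.0422). This call passed in 8 of 21 alternative settings, whose adjusted p ran from 0.000288 to 0.122. It was lost without ventricular library 1 (-1.53, limma adjusted p = 0.113) or 3 (-1.14, 0.0933), without medial library 1 or 2 (-1.66, 0.0606 and 0.0599), and without lateral library 1, 2 or 3 (-1.78, -1.60 and -1.60, with 0.0950, 0.122 and 0.113). Without ventricular library 2 the difference was -2.31 (limma adjusted p = 0.00104), and without both shallow libraries it was -1.14 (limma adjusted p = 0.0583). The medial minus lateral difference (-0.84 ± 0.49) and the ventricular minus medial difference (-0.82 ± 0.49) did not pass.

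Ss18 encodes a subunit of the ATPase module that is present in progenitor BAF. It was at 23.6, 19.9 and 27.0 FPKM in the ventricular zone, 19.3, 20.9 and 29.2 FPKM in the medial mantle and 10.2, 8.77 and 9.95 FPKM in the lateral mantle. The ventricular and medial values lay in the same range, and all 6 were above the 3 lateral values. Against the lateral mantle the log2 difference was 1.2 ± 0.21 for the ventricular zone (SE; limma adjusted p = 0.0060, past the threshold in all 21 alternatives) and 1.16 ± 0.21 for the medial mantle (limma adjusted p = 0.0154). The medial difference was lost without medial library 2 (1.22, adjusted p = 0.0568) or lateral library 1, 2 or 3 (1.2, 1.11 and 1.19, adjusted p = 0.0620, 0.0814 and 0.0564). Both comparisons use the same lateral libraries. The ventricular minus medial difference was 0.03, with a 95% interval of -0.44 to 0.51.

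Ss18l1 (chr2:180042509-180070201, plus strand) encodes CREST, a calcium-responsive coactivator that takes the place of SS18 in neurons. It was at 15.0, 28.2 and 8.58 FPKM in the ventricular zone, 31.3, 29.1 and 31.2 FPKM in the medial mantle and 41.5, 38.3 and 36.3 FPKM in the lateral mantle. The 3 zones did not overlap in any of their libraries for this gene. The ventricular minus lateral difference was -1.27 ± 0.33 (SE; limma adjusted p = 0.0277). It was lost without ventricular library 1 (-1.25, limma adjusted p = 0.0769) or lateral library 1, 2 or 3 (-1.22, -1.27 and -1.31, with 0.0962, 0.0857 and 0.0713), with no filter (limma adjusted p = 0.0554) and with only the zones compared in the fit (0.0668), and it passed in 15 of 21 alternatives. Without both shallow libraries the ventricular minus lateral difference was smaller, at -0.88, and passed (limma adjusted p = 0.0277). The ventricular minus medial difference was -0.94 ± 0.33 (limma adjusted p = 0.393), and it passed without ventricular library 2 (-1.35, adjusted p = 0.0187). The medial minus lateral difference was -0.33 ± 0.33 (limma adjusted p = 0.622).

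The BAF45 position can be filled by the products of 4 genes. Phf10 (chr17:14945009-14961273, minus strand), which encodes BAF45a, was at 30.8, 31.7 and 32.2 FPKM in the ventricular zone, 34.5, 32.8 and 37.8 FPKM in the medial mantle and 22.1, 27.3 and 27.5 FPKM in the lateral mantle. The lateral libraries were the 3 lowest and the medial libraries the 3 highest, over a narrow range. The ventricular minus lateral difference was 0.30 ± 0.15 (limma adjusted p = 0.195) and the medial minus lateral difference 0.44 ± 0.15 (limma adjusted p = 0.148). The gene shares 470 of its exonic bases (9.56%) with the opposite-strand gene 1600012H06Rik, whose level was 9.26 ± 1.44 FPKM in ventricular and 4.87 ± 0.76 FPKM in lateral mantle libraries (SD, n = 3; log2 difference 0.80, limma adjusted p = 0.0534).

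Dpf1 (chr7:29303951-29318243, plus strand) encodes BAF45b. It was at 54.9, 107 and 18.0 FPKM in the ventricular zone, 115, 97.3 and 51.9 FPKM in the medial mantle and 133, 137 and 139 FPKM in the lateral mantle. The lateral values were tightly grouped above all others, while the ventricular values spread over a wide range. The ventricular minus lateral difference of -1.5 ± 0.53 did not pass (limma adjusted p = 0.0758). It passed without ventricular library 2 (-2.08, limma adjusted p = 0.00986) and without both shallow libraries (-0.82, limma adjusted p = 0.0402). Without ventricular library 3 alone it was -0.82 and did not pass (limma adjusted p = 0.140).

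Dpf3 (chr12:83213745-83487716, minus strand), which encodes BAF45c, had the lowest level of the 10 members in every library except lateral library 3, where Ss18 was lower. It was at 7.58 and 7.36 FPKM in ventricular libraries 1 and 2 and listed at 0 in ventricular library 3. The medial mantle values were 5.67, 8.82 and 6.70 FPKM, and the lateral ones 9.11, 8.16 and 15.6 FPKM. Apart from the 0, the ventricular and medial values overlapped, and lateral library 3 was well above the rest. The ventricular minus lateral difference was -1.47 ± 0.72 with the 0 (limma adjusted p = 0.174) and -0.45 without that library (limma adjusted p = 0.327).

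Dpf2 (chr19:5896516-5913010, minus strand) encodes BAF45d, the paralogue found in many tissues. It was at 83.0, 75.2 and 103 FPKM in the ventricular zone, 82.7, 92.3 and 75.5 FPKM in the medial mantle and 60.9, 51.2 and 71.5 FPKM in the lateral mantle. All ventricular and medial values were above the lateral ones. The difference from the lateral zone was 0.50 ± 0.18 for the ventricular zone (limma adjusted p = 0.0741, and 0.0440 without ventricular library 2) and 0.45 ± 0.18 for the medial mantle (limma adjusted p = 0.192).

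Among the ATPase genes, Smarca2 (chr19:26605050-26778322, plus strand), which encodes Brm, had 22.5, 39.9 and 30.4 FPKM in the ventricular zone, 55.2, 54.0 and 43.1 FPKM in the medial mantle and 93.6, 65.7 and 68.8 FPKM in the lateral mantle. The zones were in the same order as for Ss18l1 and again did not overlap. Its ventricular minus lateral difference was -1.29 ± 0.23 (SE; limma adjusted p = 0.00633), which passed in all 21 alternatives. The medial mantle lay between, at -0.56 ± 0.23 from the lateral zone (limma adjusted p = 0.206), and the ventricular minus medial difference was -0.73 ± 0.23 (limma adjusted p = 0.393).

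Smarca4 (chr9:21616169-21704230, plus strand), which encodes Brg1, the ATPase required in neural progenitors, was at 110.4, 130.0 and 141 FPKM in the ventricular zone, 146, 141 and 131 FPKM in the medial mantle and 110.1, 116 and 117 FPKM in the lateral mantle. The ventricular libraries overlapped with those of both mantle zones. The ventricular minus lateral difference was 0.14 ± 0.13, with a 95% interval of -0.16 to 0.44 (limma adjusted p = 0.473). With array weights it was -0.013. A medial minus lateral difference of 0.28 ± 0.13 did not pass (limma adjusted p = 0.269), although all 3 medial libraries were above all 3 lateral ones.

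The exchange was also measured within each library as log2((A + 1)/(B + 1)) of FPKM for 7 pairs, a ratio that the scaling of the library enters only through the added 1. In all 7 pairs the 3 lateral libraries had the highest ratios of the neuronal to the other paralogue, or of Smarca2 to Smarca4, of all 9 libraries. The BAF45 pairs are built from the same genes (Dpf1 or Dpf3 over Phf10 or Dpf2), so the 7 pairs are not independent. How often other gene pairs have this order was not measured. Over the 3 zones, 2 pairs passed an exact permutation test with p-values adjusted over the 7 pairs: Ss18l1/Ss18 (p = 0.0107, adjusted 0.0375) and Smarca2/Smarca4 (p = 0.00357, the smallest that the 1680 assignments can give, adjusted 0.025). Between 2 zones, the smallest two-sided exact p that 3 against 3 libraries can give is 0.1, so no pairwise difference of a ratio can reach 0.05. The lateral to ventricular and lateral to medial differences of all 7 pairs had that p (0.14 adjusted over 21 comparisons).

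**Figure D2:**
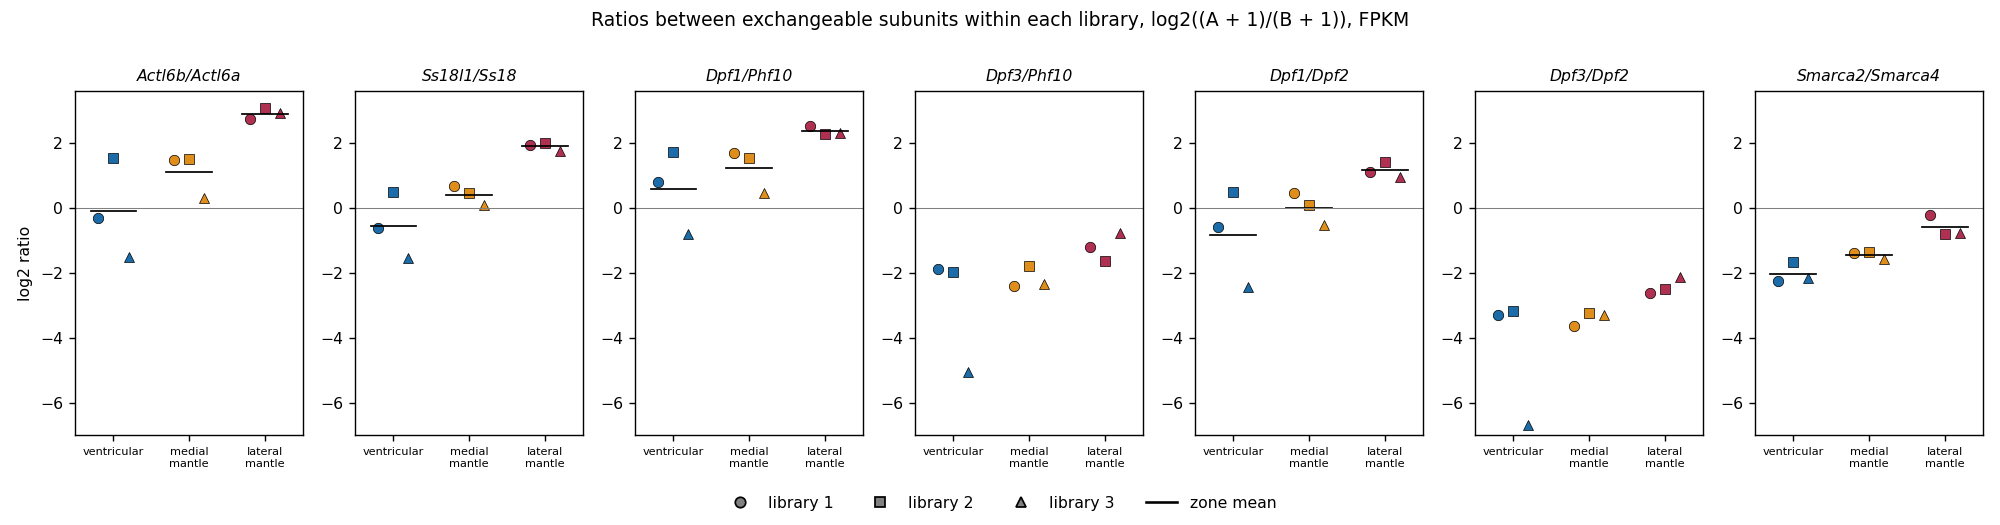
Log2 ratios of FPKM + 1 (y axis) for 7 pairs of paralogues in each of 9 libraries by zone, with symbols for libraries 1 to 3, a line at the zone mean (left out for the Dpf3 pairs) and a grey line at equal levels. The 3 lateral mantle libraries are the highest in every panel, and the 3 zones separate fully for Smarca2/Smarca4.

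The Actl6b/Actl6a log2 ratio was -0.32, 1.53 and -1.50 in ventricular libraries 1 to 3, 1.47, 1.50 and 0.32 in the medial mantle and 2.74, 3.08 and 2.92 in the lateral mantle. Ventricular library 2 and medial libraries 1 and 2 had nearly the same value, and the lateral values were tightly grouped above them. The lateral zone exceeded the ventricular one by 3.01 ± 0.89 (SE), or 8.03-fold, and the medial mantle by 1.81 ± 0.40, or 3.52-fold. Across the zones the exact permutation p was 0.0464 (adjusted 0.1), so this pair did not pass. It passed without ventricular library 2 (difference 3.82, exact permutation adjusted p = 0.00625) and without both shallow libraries (2.30, exact permutation adjusted p = 0.04).

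For Ss18l1/Ss18 the log2 ratio was -0.62, 0.48 and -1.55 in the ventricular zone, 0.68, 0.46 and 0.09 in the medial mantle and 1.93, 2.01 and 1.77 in the lateral mantle. The lateral libraries again stood apart, and ventricular library 2 lay among the medial ones. The lateral zone exceeded the ventricular one by 2.47 ± 0.59 (SE), or 5.52-fold, and the medial mantle by 1.49 ± 0.18, or 2.82-fold. The call across zones was lost without medial library 1 (exact permutation adjusted p = 0.05) or lateral library 1, 2 or 3 (exact permutation adjusted p = 0.075 each), where fewer assignments are possible. It was also lost with replicate number as a block, where libraries are reassigned only within a number and fewer assignments are possible too.

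The Smarca2/Smarca4 log2 ratio was -2.25, -1.68 and -2.17 in the ventricular zone, -1.39, -1.37 and -1.59 in the medial mantle and -0.23, -0.81 and -0.76 in the lateral mantle. No zone overlapped with another. The medial mantle exceeded the ventricular zone by 0.59 ± 0.19 (SE), and the lateral mantle exceeded the medial mantle by 0.85 ± 0.20 and the ventricular zone by 1.43 ± 0.26, or 2.70-fold. The ratio stayed below 0 in all 9 libraries, so Smarca4 had the higher level even where Smarca2 was highest. Without medial library 1, where fewer assignments are possible, the exact permutation adjusted p was 0.05, which does not pass. The call was also lost with replicate number as a block. Libraries are then reassigned only within a number, so fewer assignments are possible and the smallest p is larger. A pair whose zones separate fully, such as this one, can therefore be lost there.

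The 4 BAF45 ratios did not pass with all libraries. Dpf1/Phf10 was 0.81, 1.72 and -0.80 in the ventricular zone, 1.70, 1.54 and 0.45 in the medial mantle and 2.54, 2.29 and 2.30 in the lateral mantle (exact permutation p = 0.0714, adjusted 0.1), and the lateral minus ventricular difference was 1.80 ± 0.74 (SE). Dpf1/Dpf2 was -0.59, 0.50 and -2.45, then 0.47, 0.08 and -0.53, then 1.11, 1.41 and 0.95 (exact permutation p = 0.0571, adjusted 0.1), with a lateral minus ventricular difference of 2.0 ± 0.87. Dpf1 thus exceeded Dpf2 in 3 of 3 lateral, 2 of 3 medial and 1 of 3 ventricular libraries. The Dpf3 pairs rest on the 0 in ventricular library 3. With that library the lateral minus ventricular difference was 1.77 for Dpf3/Phf10 and 1.98 for Dpf3/Dpf2 (exact permutation adjusted p = 0.139 and 0.138), and without it 0.73 and 0.82. The second passed without that library (exact permutation adjusted p = 0.0417).

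**Figure D3:**
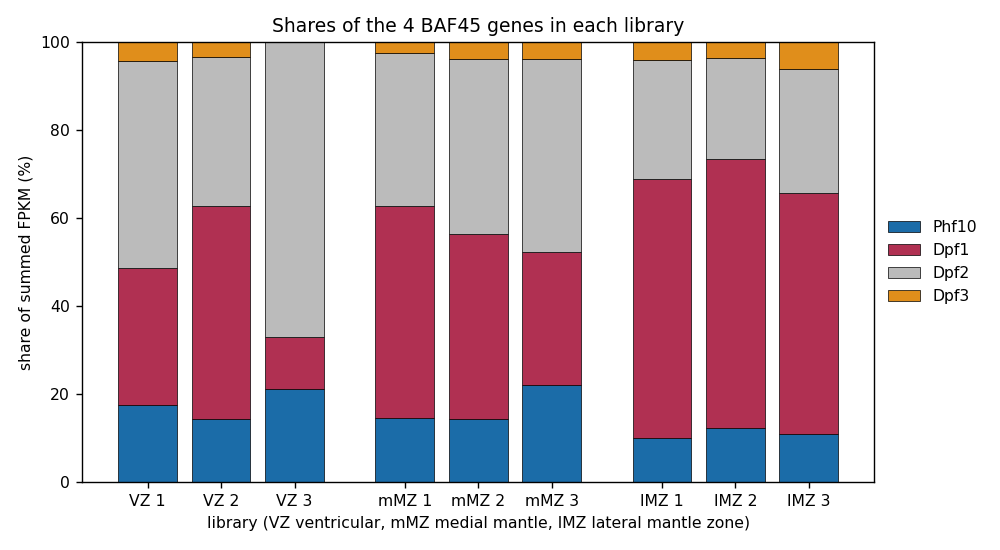
Share of the summed FPKM of Phf10, Dpf1, Dpf2 and Dpf3 taken by each gene (stacked bars, y axis in percent from 0 to 100) in each of 9 libraries. Dpf1 takes 54.8% to 61.3% in the lateral mantle libraries, and Dpf2 takes 67.2% in ventricular library 3, where Dpf3 is listed at 0.

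As shares of the summed FPKM of a position, the neuronal genes made up most of that sum in the lateral mantle. Such shares set different genes side by side, which FPKM allows only roughly. Actl6b took 87.5%, 89.9% and 88.7% of the Actl6 sum in the lateral libraries, 73.8%, 74.3% and 55.6% in the medial mantle and 44.4%, 74.6% and 25.6% in the ventricular zone. Ss18l1 took 80.4%, 81.4% and 78.5% of its sum in the lateral mantle, 61.9%, 58.2% and 51.7% in the medial mantle and 38.8%, 58.6% and 24.1% in the ventricular zone. The neuronal gene of both positions was above 50% in every medial mantle library and also in ventricular library 2. Smarca2 took 45.9%, 36.2% and 37.0% of the ATPase sum in the lateral mantle, 24.7% to 27.7% in the medial mantle and 16.9% to 23.5% in the ventricular zone, and so never reached that of Smarca4. Of the BAF45 sum, Dpf1 took 54.8% to 61.3% in the lateral mantle, 30.2% to 48.2% in the medial mantle and 11.8% to 48.4% in the ventricular zone. Phf10 took 9.8% to 12.2%, 14.2% to 22.0% and 14.3% to 21.0% in the same order. The summed FPKM of Actl6a and Actl6b was 104.6 ± 37.7, 118 ± 17.1 and 161 ± 20.2 FPKM in the ventricular, medial and lateral zones, and that of the BAF45 genes 184 ± 34.7, 213 ± 36.2 and 234 ± 16.8 FPKM (SD, n = 3). The summed FPKM of Ss18 and Ss18l1 was 40.8 ± 6.57, 53.7 ± 5.83 and 48.3 ± 2.93 FPKM in the ventricular, medial and lateral zones, and that of the ATPases 158 ± 21.7, 190.1 ± 13.9 and 190.5 ± 11.6 FPKM (SD, n = 3). These values cover mRNA and not the subunits in assembled complexes.

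**Figure D4:**
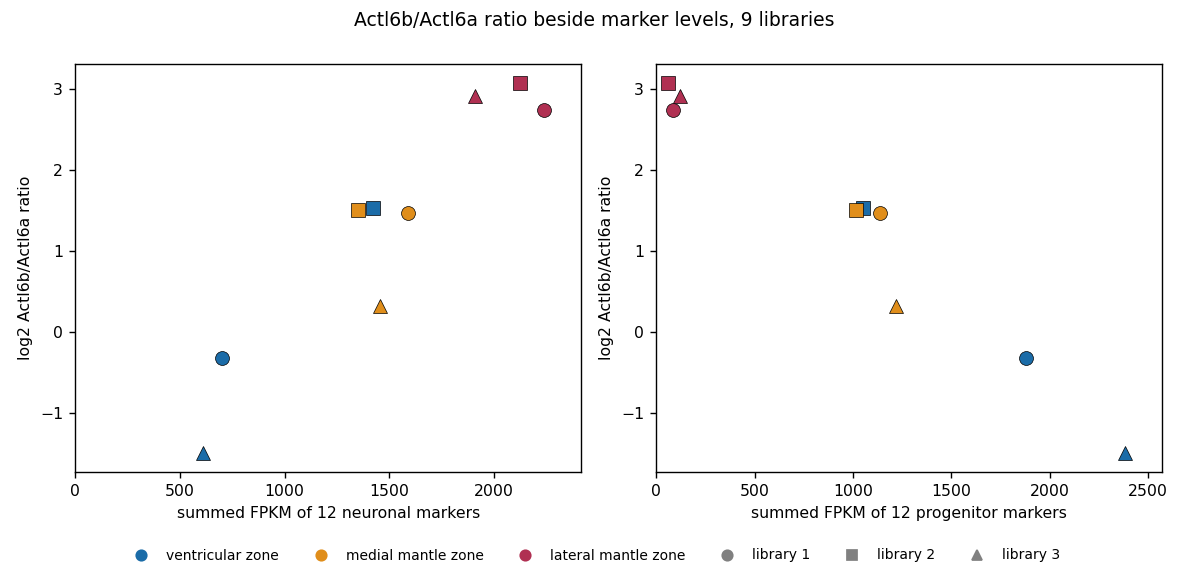
Log2 Actl6b/Actl6a ratio (y axis) against the summed FPKM of 12 neuronal markers (left) and of 12 progenitor markers (right) in 9 libraries, with colours for zones and symbols for libraries 1 to 3. Ventricular library 2, at a ratio of 1.53, lies beside medial mantle libraries 1 and 2 (1.47 and 1.50) in both panels, and the 3 lateral libraries lie apart at 2.74 to 3.08.

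No member passed between the ventricular and the medial mantle zone by limma, and neither did any of the 14004 genes tested, a background of 0%. At an unadjusted p under 0.05 there were 2 members (Ss18l1 and Smarca2) and 1661 genes. The ventricular libraries lay below the medial ones without overlap for 3 members, Phf10, Ss18l1 and Smarca2, and above them for none. Against this, 14.7% of all genes did not overlap, 9.30% lower and 5.36% higher in the ventricular zone. Without ventricular library 2, 571 genes and 2 members passed, Actl6b (-1.47, limma adjusted p = 0.0337) and Ss18l1 (-1.35, limma adjusted p = 0.0187). With array weights, which lower the influence of variable libraries, 2761 genes and 6 members passed.

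Between the medial and the lateral mantle, 2 of 10 members passed, Actl6a and Ss18, both higher in the medial mantle, against 4.12% of all genes (3.58% higher and 0.543% lower). The libraries did not overlap for 9 members, all but Dpf3, against 40.4% of all genes. Of these 9, 5 were higher and 4 lower in the medial mantle, against 25.7% and 14.8% of all genes. The median medial minus lateral difference was -0.02 over the members and 0.10 over all genes. The member median again falls in a gap, between Smarca4 (0.28) and Ss18l1 (-0.33). Without medial library 2 or any 1 of lateral libraries 1, 2 or 3, 0 members passed. Of all genes tested, 222 passed without medial library 2, and 240, 207 and 295 without lateral libraries 1, 2 and 3 in turn. Without ventricular library 1 or medial library 1 or 3, 1 member passed, beside 443, 293 and 294 genes in that order. With all 9 libraries 577 genes passed. This comparison and the ventricular one share the lateral libraries, and each gives Actl6a and Ss18 a higher level than in the lateral mantle.

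Among subunits outside this exchange, the number that passed was near the share of all genes. Of 20 other subunits of BAF, PBAF and ncBAF, all tested (Bicra and Bicral under their older symbols Gltscr1 and Gltscr1l), 3 were higher and 1 was lower in the ventricular zone than in the lateral one, against the background of 19.6%, and the median difference was 0.06. The 4 were Arid2, a subunit of PBAF (0.84 ± 0.23, limma adjusted p = 0.0318), Bcl7a (0.65 ± 0.17, limma adjusted p = 0.0291), Arid1a, the large subunit that defines canonical BAF (0.59 ± 0.14, limma adjusted p = 0.0199, named after its value was seen), and Bcl7c (-0.74 ± 0.23, limma adjusted p = 0.0487). The core scaffold gene Smarcc2 was at 129 ± 22.8, 136 ± 26.7 and 137 ± 11.7 FPKM in the ventricular, medial and lateral zones, and Smarce1 at 121 ± 23.1, 129.9 ± 17.9 and 138 ± 18.2 FPKM (SD, n = 3), and neither passed. Bcl7a and Bcl7c are paralogues, and their differences had opposite signs. None of the 20 passed between the medial and lateral mantle or between the ventricular and medial mantle.

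**Figure D5:**
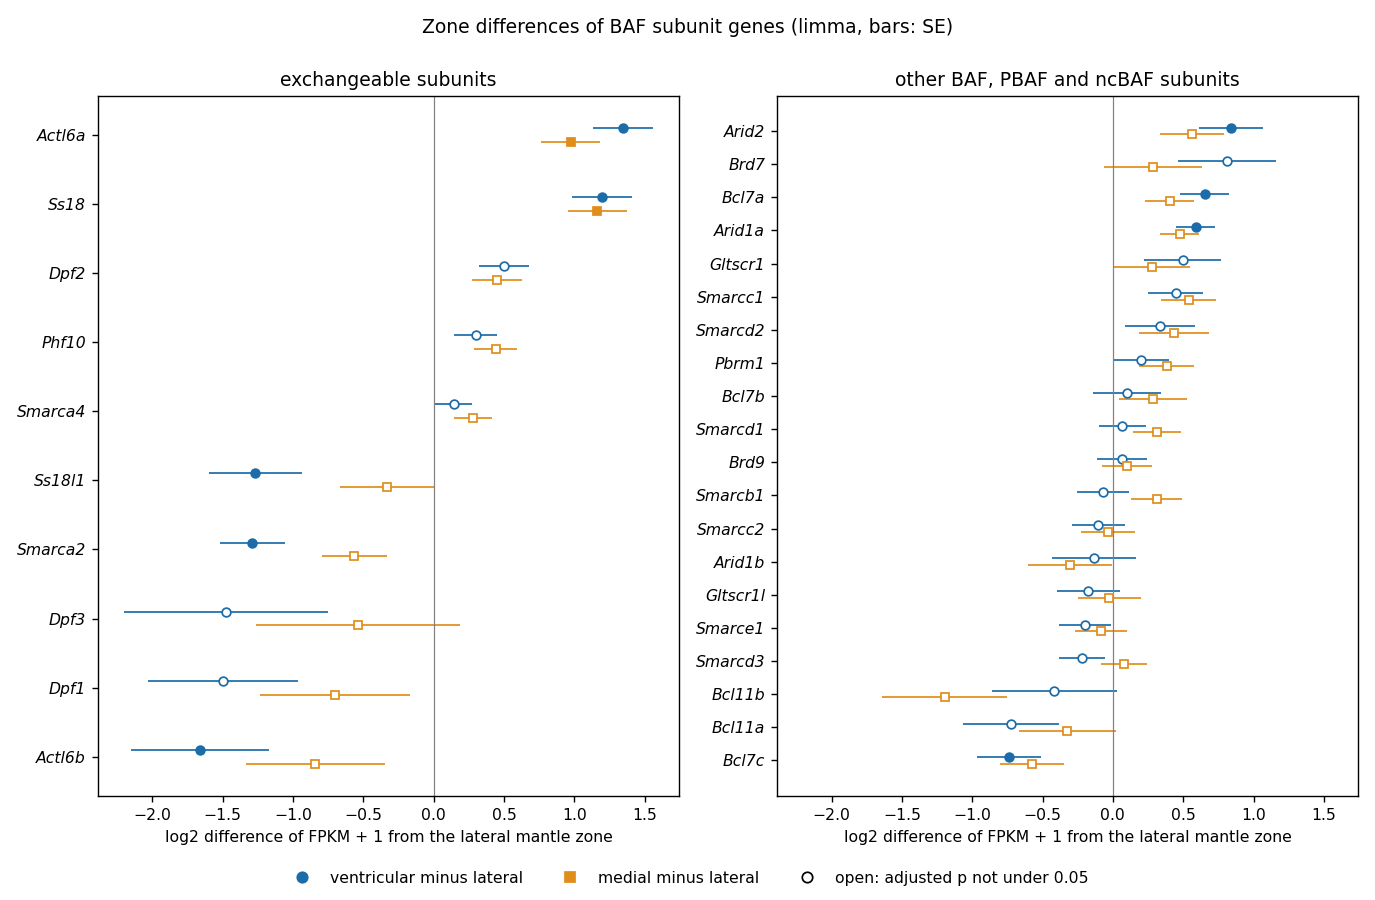
Log2 differences of FPKM + 1 from the lateral mantle zone (x axis; limma, bars are SE) for the 10 members (left) and 20 other BAF, PBAF and ncBAF subunits (right), with circles for the ventricular and squares for the medial mantle zone and filled symbols where the adjusted p is under 0.05. The members run from -1.66 (Actl6b) to 1.35 (Actl6a) in the ventricular zone, while the other subunits run from -0.74 (Bcl7c) to 0.84 (Arid2).

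Because BAF53a also belongs to the INO80, SRCAP and TIP60 complexes, 19 further subunits of these were read from the same fit. Between the ventricular and lateral zones 4 were higher (Ing3, Ruvbl1, Ruvbl2 and Trrap) and none lower, against the background of 10.7% and 8.93%, with a median difference of 0.17. Ing3, which reads methylated histone H3, was at 17.4 ± 5.52 FPKM in ventricular and 6.5 ± 1.75 FPKM in lateral mantle libraries (SD, n = 3; difference 1.27 ± 0.32, limma adjusted p = 0.0245). The ATPases Ruvbl1 and Ruvbl2 differed by 0.83 ± 0.25 and 0.76 ± 0.23 (limma adjusted p = 0.0436 and 0.0478). Trrap is named after its value was seen. Vps72 and Yeats4, the most abundant members that did not pass, differed by 0.38 ± 0.13 and 0.11 ± 0.20. None of the 19 passed in the other comparisons.

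The genes with the pattern most like Actl6b over the 9 libraries were Camsap3, Fam57b, Iqsec3, Jph4 and Dnm1 (Pearson r of log2(FPKM + 1) from 0.987 to 0.995). For Actl6a they were Kif20a, Cdk2ap1, Nde1, Cdca2 and Uhrf1 (r from 0.994 to 0.999). They were ranked among 9636 genes with a mean of at least 5 FPKM. Dnm1, which encodes the neuronal dynamin of synaptic vesicle recycling, was at 41.1 ± 49.6, 64.6 ± 19.3 and 178 ± 4.47 FPKM in the ventricular, medial and lateral zones. Kif20a, a kinesin of cytokinesis, was at 13.3 ± 7.06, 6.79 ± 2.1 and 0.896 ± 0.239 FPKM (SD, n = 3). The libraries share zone and depth, so r is a description of 9 points and carries no test.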

How the data were processed

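The authors deposited FPKM values, 1 per gene and library, with no read counts. Per the submitters' processing notes, Bowtie2 2.1.0 and mm10 were used, and the FPKM program was not given in the sources used here. Per the labels' protocols, libraries were read as 100 bp pairs. Of 38370 rows, 42 identical rows and 133 lower rows of a repeated symbol were removed, none of a member. The 14004 genes that reached 1 FPKM in 3 or more of the 9 libraries were fitted as log2(FPKM + 1) with limma 3.58.1 in R 4.3.3, with 1 mean per zone and empirical Bayes moderation that follows intensity. Two-sided p-values were adjusted over all genes tested (Benjamini-Hochberg, threshold 0.05). Ratios were tested by exact permutation of the libraries. Depth was estimated from the steps of the lowest FPKM values, so it is relative and exact counts are unknown. Coordinates are GENCODE M21 gene spans on GRCm38, the assembly called mm10. Genes named were the members, up to 3 genes per list past the threshold by size of the ventricular minus lateral difference and up to 2 not past it by mean level, and the 5 best correlates of Actl6a and of Actl6b. The members and lists were chosen with earlier results of these data known. Alternatives covered the pseudocount, filter, scaling, trend, weights, zones in the fit, repeated symbols, a replicate block and libraries left out. Of the listed cell type markers, 1 is not reported here.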

Additional observations from a re-analysis of the deposited data

How the results depend on the processing

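Of 30 member differences under 21 alternatives each, 10 values changed sign over 4 differences, none past the threshold. Smarca4 ventricular minus lateral was -0.013 with array weights. Ventricular minus medial, Dpf2 was -0.076 with array weights and -0.14 without the 2 shallow libraries. Leaving out 1 library gave Dpf2 -0.074 to 0.15, with -0.074 without ventricular library 3 and -0.018 without medial library 3. Dpf3 was 0.065 without the 2 shallow libraries and -1.46 to 0.089 with 1 library left out (0.089 without ventricular library 3). Ss18 was -0.082 to 0.21, with -0.067 without ventricular library 3 and -0.082 and -0.024 without medial library 1 and 2. A further 33 values were no longer past the threshold and 19 came past it, and the cause was not tested. With array weights, 6800 genes passed between the ventricular and lateral zones, 2761 between the ventricular and medial zones and 3700 between the mantle zones. With only the zones compared in the fit, 1684 passed between ventricular and lateral and 2027 between the mantle zones. Between ventricular and medial, 4 passed with a mean of at least 5 FPKM and 9 with quantile normalization, and between the mantle zones 1666 passed without the 2 shallow libraries. Leaving out 1 library gave 959 to 3958 genes and 3 to 7 members for ventricular against lateral, 0 to 571 genes and 0 to 2 members for ventricular against medial, and 207 to 1760 genes and 0 to 2 members between the mantle zones. Members past the threshold numbered 3 between ventricular and lateral with no filter or with only the zones compared, and 6 between ventricular and medial with array weights. Between the mantle zones there was 1 with no filter, trimmed mean scaling or no trend, and 6 with array weights. Genes past the threshold there were 501 higher and 76 lower in the medial mantle, against 527 and 264 with quantile normalization, which moved the median of all genes from 0.10 to -0.0082. Whether replicate numbers pair the libraries is not settled. Of 9 same-numbered pairs, 4 correlated above 0.1 (range -0.098 to 0.25), and 5 of 9 libraries correlated best with their own number. With a replicate block, the ratio differences of 2.47 (Ss18l1/Ss18) and 1.43 (Smarca2/Smarca4) had an exact permutation adjusted p of 0.0778. Fewer assignments are possible with the block, so the smallest p is larger. Without the 2 shallow libraries the ratio differences for Actl6b/Actl6a, Dpf1/Phf10 and Dpf3/Dpf2 were 2.30, 1.11 and 0.82 and passed (exact permutation adjusted p = 0.04). Leaving out 1 library gave 2.30 to 3.82 (Actl6b/Actl6a), 1.97 to 2.99 (Ss18l1/Ss18), 1.2 to 2.68 (Dpf1/Dpf2), 0.82 to 2.58 (Dpf3/Dpf2) and 1.25 to 1.61 (Smarca2/Smarca4). Dpf1 ventricular minus lateral passed with the block (limma adjusted p = 0.0379). Depth limits low levels in ventricular library 3 and medial library 3.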

Other observations

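Other chromatin remodellers also differed between zones. Of 17 ATPase genes of the ISWI, CHD, INO80 and related families, 7 were higher (Chd1, Chd4, Chd7, Chd8, Ep400, Hells and Smarca5) and 1 was lower (Chd5) in the ventricular zone than in the lateral mantle by limma, against 10.7% and 8.93% of all genes, with a median log2 difference of 0.58. Chd7, the gene mutated in CHARGE syndrome, was at 29.5, 19.6 and 44.4 FPKM in ventricular libraries 1 to 3, 19.5, 20.5 and 33.2 FPKM in the medial mantle and 4.90, 4.66 and 6.70 FPKM in the lateral mantle. Its difference from the lateral zone was 2.27 ± 0.32 (SE; limma adjusted p = 0.00227) for the ventricular zone and 1.96 ± 0.32 (limma adjusted p = 0.00948) for the medial mantle. Chd5, a remodeller of neurons, had the opposite order, at 4.18, 13.4 and 2.40, then 15.0, 14.0 and 13.7, then 44.9, 51.3 and 42.1 FPKM (ventricular minus lateral -2.89 ± 0.43, limma adjusted p = 0.00311). Hells, a remodeller that supports DNA methylation, was at 7.95 ± 1.83 FPKM in ventricular and 1.14 ± 0.27 FPKM in lateral mantle libraries (SD, n = 3; limma adjusted p = 0.0132). Chd3 and Atrx, at 144 ± 19.1 and 84.4 ± 26.9 FPKM in the ventricular zone, did not pass. Ep400 is also a subunit of TIP60.

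Of 10 genes of the REST corepressor complexes and the Ptbp splicing factors, 3 were higher in the ventricular zone than in the lateral one (Ptbp1, Rcor1 and Rcor2) and none was lower, against 10.7% and 8.93% of all genes, with a median of 0.61 (0.05 over all genes). Ptbp1, which represses neuronal exons, was at 109, 77.7 and 151 FPKM in ventricular libraries 1 to 3, 65.9, 74.7 and 65.6 FPKM in the medial mantle and 18.8, 26.4 and 26.7 FPKM in the lateral mantle. Rcor2, a corepressor of the CoREST family, was at 172, 113 and 198, then 84.5, 92.6 and 84.3, then 33.8, 33.8 and 42.5 FPKM in the same order. Both also passed between the medial and the lateral mantle (1.5 ± 0.24 and 1.23 ± 0.21, limma adjusted p = 0.00929 and 0.0111). Rcor1 was at 11.5 ± 2.38 FPKM in ventricular and 5.37 ± 0.61 FPKM in lateral mantle libraries (SD, n = 3; limma adjusted p = 0.0184). Hdac2 and Kdm1a, at 138 ± 17.5 and 119 ± 8.29 FPKM in the ventricular zone, did not pass.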
